A study of Mus musculus with 33 samples.

Results

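Neurexins are presynaptic adhesion proteins, and neuroligins and leucine-rich repeat transmembrane proteins (LRRTMs) are their postsynaptic binding partners. Contacts across the synapse help to organise release sites and receptor clusters: neuroligin 1 and the LRRTMs are known for their roles at excitatory synapses, neuroligin 2 for its role at inhibitory synapses, and neuroligin 3 for a presence at both. The transcripts described here were the 9 rows of the expression table with the symbols Nrxn2, Nrxn3, Nlgn1, Nlgn2, Nlgn3, Lrrtm1, Lrrtm2, Lrrtm3 and Lrrtm4, of 21565 genes in all. They were chosen by name, with earlier results of these data known.

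RNA was taken from the frontal cortex of adult male mice at ZT 6 and sequenced as stranded, polyadenylated libraries. Wild-type (WT) C57BL/6J mice slept ad libitum in the first group (CS, n = 6), were sleep deprived for 6 hr on a slowly moving treadmill (SD, n = 7), or had 4 hr of deprivation and then 2 hr of recovery sleep (RS, n = 7). Mef2c f/f mice, which carry loxP sites around an exon of Mef2c, were studied as 4 CS and 3 SD libraries, as were Mef2c-cKO mice, which carry the same alleles and a Camk2a-Cre transgene that is active mainly in forebrain excitatory neurons (3 CS and 3 SD libraries). Both of these lines were on a C57BL/6J background, and some Mef2c-cKO mice also had recombination in tail DNA, so the deletion was not limited to neurons in all of them. The labels number the libraries without naming animals, so p-values measure the spread between these libraries.

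Values are CPM, read counts scaled by the total of each library and then rescaled by a median-of-ratios factor per library. Changes are log2 fold changes ± standard error (SE) from limma on log2(rescaled CPM + 0.5), a scale that understates the change of low genes, and all adjusted p values are Benjamini-Hochberg values over all genes tested. A differentially expressed gene (DEG) needed an adjusted p no higher than 0.05 and a log2 fold change no smaller than 0.3 in either direction. All 9 transcripts passed the filter on low values (CPM of at least 1 in all libraries of a compared group) in every comparison. In bulk tissue, fewer cells of a type and less RNA per cell cannot be told apart.

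Totals went from 18935045 to 249046089 reads per library, and the lowest of the 9 transcripts had a rescaled CPM of 16.56. Counting error was not set apart from the spread between libraries. It was not small beside that spread in every group. Lrrtm1 in Mef2c-cKO CS was at 29.54 ± 0.153 rescaled CPM (SD, n = 3), from 1171 to 1259 reads per library. The genes listed for WT libraries summed to less than 1000000 CPM, and those for Mef2c f/f and Mef2c-cKO libraries to 1000000 CPM, so WT levels were not tested against those of the other lines. In 8 WT libraries (CS 1 to 4, SD 1 and RS 1 to 3) the sum was below 970000 CPM. Mef2c itself was at 1145 ± 67.2 rescaled CPM (SD, n = 4) in Mef2c f/f CS and 1429 ± 414 (n = 3) in Mef2c-cKO CS, but counts over the whole gene do not check the loss of an exon. Markers of excitatory neurons, the main cells of the labelled tissue, were at a CPM of at least 1 in every library for 12 of 12 genes.

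The genes differ widely in size and base composition (GRCm38, GENCODE M21). Nrxn3 (chromosome 12, 88722876 to 90334935, plus strand) spans 1612 kb, Nlgn1 (chromosome 3, 25426215 to 26332460, minus strand) 906.2 kb and Lrrtm4 (chromosome 6, 80018877 to 80810143, plus strand) 791.3 kb. Lrrtm3 (chromosome 10, 63928472 to 64090277, minus strand) spans 161.8 kb and Nrxn2 (chromosome 19, 6418731 to 6544169, plus strand) 125.4 kb. The short genes are Nlgn3 (chromosome X, 101299168 to 101325963, plus strand) with 26.8 kb, Lrrtm1 (chromosome 6, 77242689 to 77257791, plus strand) with 15.1 kb, Nlgn2 (chromosome 11, 69823122 to 69837784, minus strand) with 14.66 kb and Lrrtm2 (chromosome 18, 35209003 to 35215024, minus strand) with 6.022 kb. Transcript GC content was highest for Nrxn2 (60.95%), Nlgn2 (59.65%) and Lrrtm1 (56.94%), intermediate for Nlgn3 (51.69%), Nrxn3 (50.91%) and Lrrtm3 (48.76%), and lowest for Lrrtm4 (44.38%), Nlgn1 (42.5%) and Lrrtm2 (40.38%). Lrrtm1, Lrrtm2 and Lrrtm3 lie within Ctnna2, Ctnna1 and Ctnna3, which encode alpha-catenins, on the opposite strand, and the exons of Lrrtm2 overlap exons of Ctnna1. The strand setting of the counting is not given in the sources used here, so values of these LRRTMs may hold reads of their host genes.

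Levels of the 9 genes were compared per length, as CPM as deposited per kb. Per kb of annotated exon in WT CS mice, Lrrtm4 was at 393.5 ± 55.4 (SD, n = 6), Nrxn3 at 364.7 ± 26.0 and Nlgn1 at 221.6 ± 22.6, followed by Lrrtm3 at 66.8 ± 4.76. The remaining transcripts were far lower, with Lrrtm2 at 15.1 ± 4.29, Nlgn2 at 10.7 ± 3.97, Nrxn2 at 6.61 ± 2.72, Lrrtm1 at 6.28 ± 1.36 and Nlgn3 at 3.47 ± 0.623. Lrrtm4 and Nrxn3 lay within their spread of each other, as did Lrrtm2 and Nlgn2, and Nrxn2 and Lrrtm1. Per kb of gene span the order was different: Lrrtm2 stood first with 15.1 ± 4.29, Nlgn2 second with 4.20 ± 1.57, and Nlgn1 (3.28 ± 0.335), Lrrtm4 (3.06 ± 0.431) and Nrxn3 (2.85 ± 0.203) lay close together. Lrrtm3 (1.75 ± 0.125), Lrrtm1 (1.26 ± 0.272), Nlgn3 (1.20 ± 0.216) and Nrxn2 (0.727 ± 0.2996) were lowest. Of the 25 genes with the highest CPM in the table, 19 span over 500 kb, against 1.68% of 12785 annotated genes with a mean CPM of at least 1. Whether reads in introns were counted is not given in the sources used here and was not tested.

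The 250 bases before an annotated start are shown for a pair of genes that were lower in Mef2c-cKO than in Mef2c f/f cortex (Lrrtm3 and Lrrtm4) and for a pair that were higher after sleep deprivation in WT cortex (Lrrtm1 and Nlgn2). They are RefSeq sequences of GRCm38.p6, 5′ to 3′ on the gene's strand, with CpG dinucleotides in capitals.
Lrrtm3, chr10:64090256-64090505, minus strand: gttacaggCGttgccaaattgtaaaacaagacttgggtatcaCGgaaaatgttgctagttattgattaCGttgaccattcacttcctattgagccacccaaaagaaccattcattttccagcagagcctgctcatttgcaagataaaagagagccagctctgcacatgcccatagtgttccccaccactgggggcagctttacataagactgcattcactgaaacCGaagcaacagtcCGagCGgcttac
Lrrtm4, chr6:80018627-80018876, plus strand: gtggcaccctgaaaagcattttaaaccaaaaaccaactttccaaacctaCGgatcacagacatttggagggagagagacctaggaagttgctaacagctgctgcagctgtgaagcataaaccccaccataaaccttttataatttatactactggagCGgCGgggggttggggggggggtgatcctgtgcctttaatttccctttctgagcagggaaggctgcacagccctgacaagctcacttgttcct
Lrrtm1, chr6:77242227-77242476, plus strand: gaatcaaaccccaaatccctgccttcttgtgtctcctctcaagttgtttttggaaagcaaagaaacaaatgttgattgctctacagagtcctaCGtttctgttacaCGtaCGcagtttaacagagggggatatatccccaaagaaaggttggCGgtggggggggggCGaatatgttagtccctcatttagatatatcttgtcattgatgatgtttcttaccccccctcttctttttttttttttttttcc
Nlgn2, chr11:69837785-69838034, minus strand: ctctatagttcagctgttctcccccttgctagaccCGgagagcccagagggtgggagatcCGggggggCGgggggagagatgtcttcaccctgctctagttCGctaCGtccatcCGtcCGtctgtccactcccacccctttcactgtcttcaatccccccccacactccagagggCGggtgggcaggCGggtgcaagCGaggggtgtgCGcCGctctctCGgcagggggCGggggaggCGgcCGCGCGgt
The Nlgn2 sequence had 18 CpG and a GC content of 67.6%, against 6 CpG and 46% for Lrrtm3, 3 CpG and 49.2% for Lrrtm4, and 5 CpG and 42% for Lrrtm1. A second annotated start of Lrrtm4 (chr6:80019393-80019642, not shown) had 8 CpG and 54%. Over 32851 RefSeq promoters the medians were 6 CpG and 52.4%. Promoters of 6 of the 9 genes were searched, with 10 starts in all, and those of Nrxn2, Nlgn3 and Lrrtm2 were not. None of these 10 windows of 300 bases (50 bases after the start included) held the MEF2 consensus, the cyclic AMP response element TGACGTCA or the E-box CACGTG on either strand, which were found in 3.19%, 1.79% and 7.15% of all promoters. A missing match says only that these letters are not in the window.

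**Figure D1:**
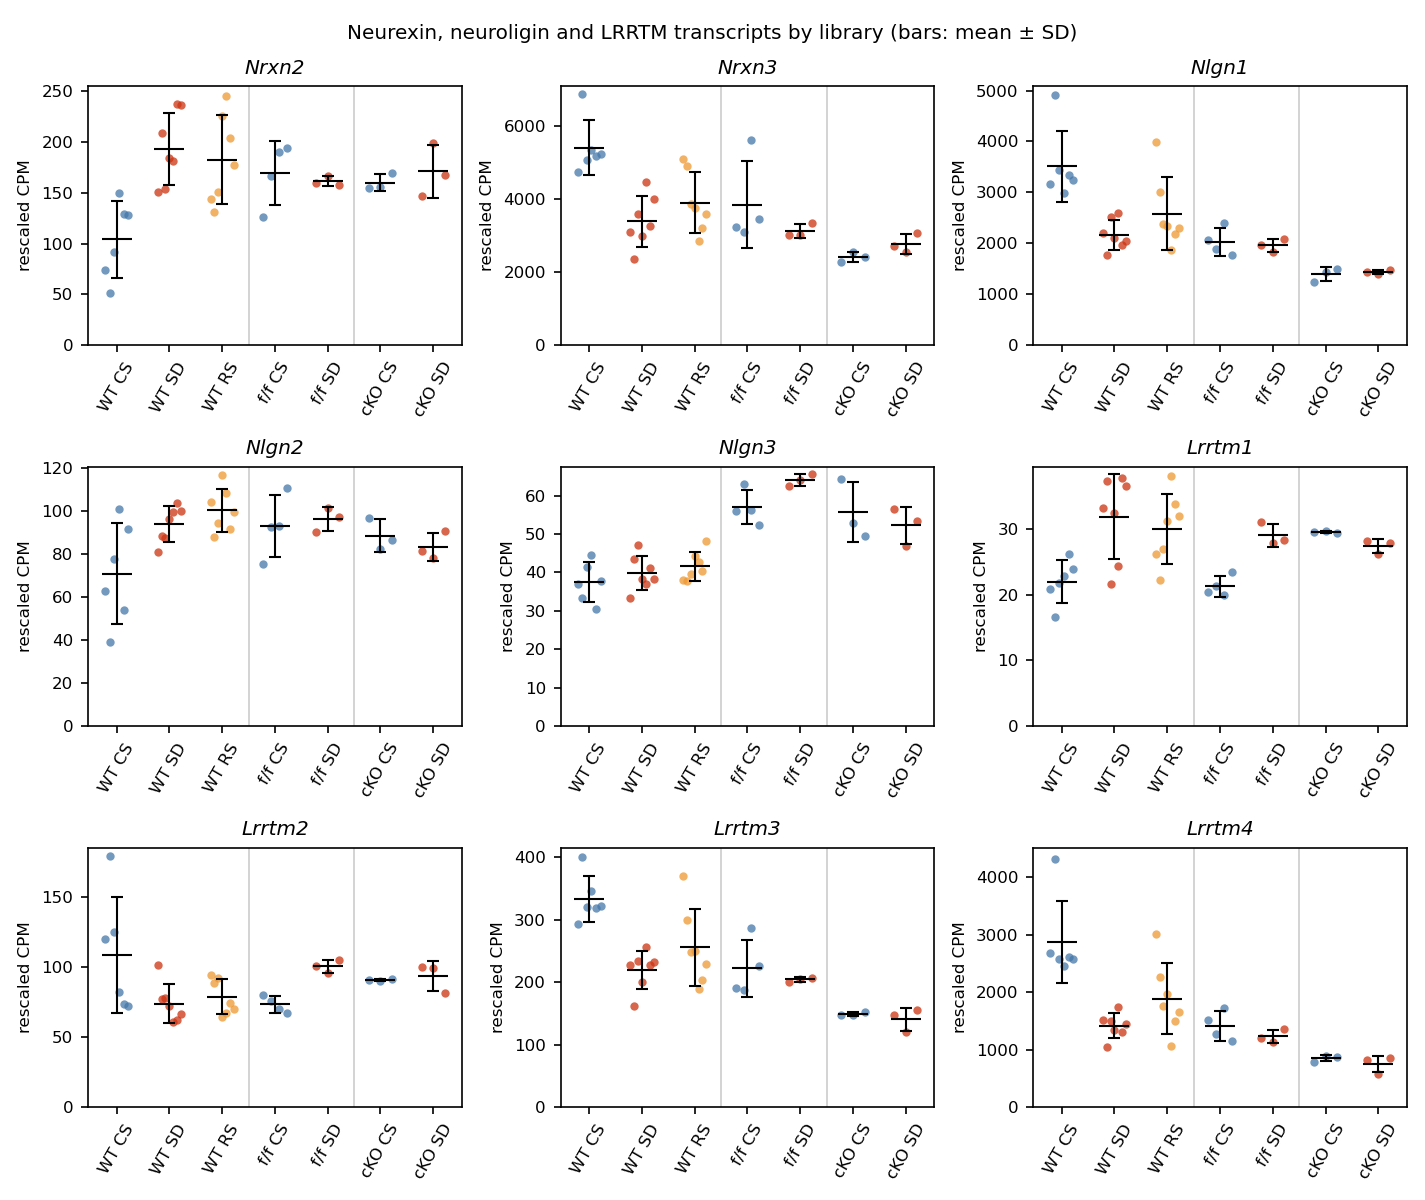
Rescaled CPM of the 9 transcripts in each of 33 libraries, by genotype and sleep state (f/f, Mef2c f/f; cKO, Mef2c-cKO), with each point 1 library and bars at the mean ± SD; each vertical axis starts at 0. Lrrtm4 in WT SD libraries sat between 1039 and 1747, below all WT CS libraries (2447 to 4320), and in Mef2c-cKO libraries between 584.8 and 885.4, below all Mef2c f/f libraries (1128 to 1727).

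The comparison of SD with CS in WT mice asked what 6 hr of sleep loss did to these transcripts. Nrxn2, Nlgn2 and Lrrtm1 rose, while Nrxn3, Nlgn1, Lrrtm2, Lrrtm3 and Lrrtm4 fell. Of the 9 transcripts 8 were DEGs, where 45.1% of 12913 genes tested were, with 3 higher (24.6% of all genes) and 5 lower (20.5%). The median log2 fold change was -0.49 over the 9 and 0.04 over all genes tested. Between CS and SD, 5 of the 9 had groups of libraries that did not overlap (15.1% of all genes).

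Among the neurexins, Nrxn2 went from 51.4, 110.2 and 150.1 rescaled CPM (lowest, median and highest library) in WT CS to 150.7, 184.7 and 237.6 in SD. Every SD library was above every CS library, by a narrow margin, with a log2 fold change of 0.96 ± 0.216 and a limma adjusted p of 0.00436. Nrxn3 moved the other way, from 4744, 5215 and 6865 in CS to 2352, 3253 and 4474 in SD. Here every SD library was below every CS library (-0.69 ± 0.144, adjusted p 0.00296).

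Among the neuroligins, Nlgn1 was at 2982, 3296 and 4906 rescaled CPM in WT CS and 1762, 2110 and 2588 in SD. The groups did not overlap and the log2 fold change was -0.69 ± 0.129 (limma adjusted p 0.00171). Nlgn2 was at 38.84, 70.19 and 100.7 in CS and 80.72, 96.35 and 103.6 in SD. These groups overlapped, since the highest CS library exceeded most SD libraries, and the rise of 0.47 ± 0.178 was near the threshold (adjusted p 0.0404; 0.0823 with edgeR) and was lost in 8 of 13 fits with a library left out. Nlgn3 was at 30.38, 37.43 and 44.63 in CS and 33.39, 38.4 and 47.15 in SD, with a log2 fold change of 0.09 ± 0.102 that did not pass the test (adjusted p 0.448). On CPM as deposited, a scale on which the median of all genes moved by 0.30, Nlgn3 was a DEG at 0.36.

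Among the LRRTMs, Lrrtm4, which binds heparan sulfate chains as well as neurexins, had the lowest log2 fold change of the 9, -1.01 ± 0.145 (limma adjusted p 0.000528). It went from 2447, 2600 and 4320 rescaled CPM in WT CS to 1039, 1444 and 1747 in SD. Lrrtm3 went from 292.1, 320.8 and 400.4 to 161.5, 227.1 and 255.6 (-0.61 ± 0.106, adjusted p 0.00121). For both genes the SD libraries all lay below the CS libraries. Lrrtm2 was at 72.38, 101 and 179 in CS and 60.58, 72.25 and 101.4 in SD, with overlapping groups and a fall of -0.49 ± 0.196 (adjusted p 0.0483) that was lost in 9 of 13 fits with a library left out, WT CS replicate 2 among them (-0.33). Lrrtm1 rose from 16.56, 22.27 and 26.16 to 21.6, 33.19 and 37.74 (0.51 ± 0.143, adjusted p 0.0114), again with overlap.

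The host genes were set beside these values. Ctnna2, around Lrrtm1, fell by 0.72 ± 0.111 on the log2 scale while Lrrtm1 rose, Ctnna3, around Lrrtm3, fell by 0.84 ± 0.143, and Ctnna1, around Lrrtm2, had a log2 fold change of -0.13 ± 0.113 with a limma adjusted p of 0.353. Ctnna3 was the less abundant of its pair, at 60.2 ± 9.33 rescaled CPM (SD, n = 6) in WT CS against 333.1 ± 37.2 for Lrrtm3. In the same libraries Ctnna2 was far more abundant than Lrrtm1, at 1784 ± 277.9 against 22 ± 3.247. Ctnna1 was at 74.7 ± 15.32 against 108.6 ± 41.48 for Lrrtm2. The part of host reads in the values of these LRRTMs was not tested.

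**Figure D2:**
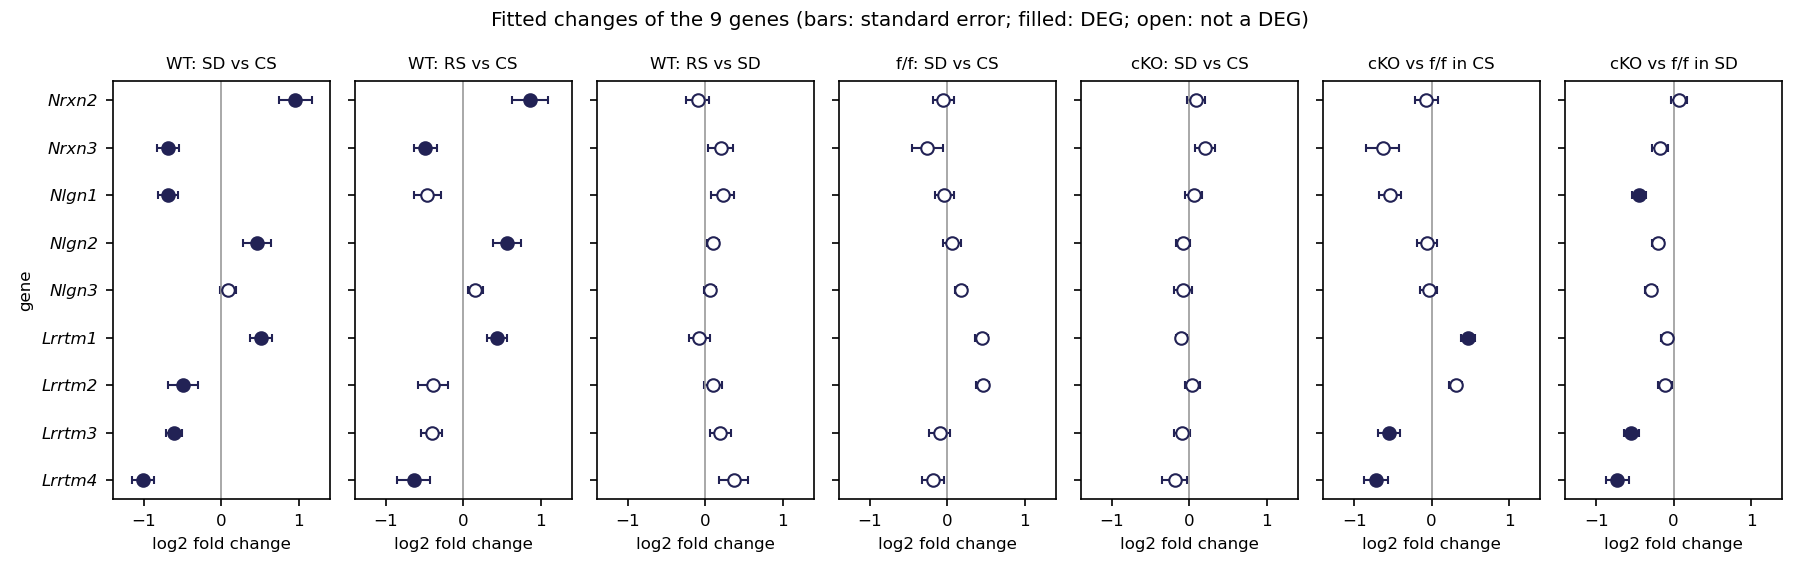
Log2 fold change of the 9 transcripts (horizontal axis) in 7 comparisons, with points at the fitted value, bars of 1 SE, filled points for DEGs and open points for the others. The 8 filled points of WT SD against CS fall on both sides of 0, and Lrrtm3 and Lrrtm4 are filled and below 0 in both comparisons of Mef2c-cKO with Mef2c f/f mice.

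The direction of the WT change followed base composition across the whole table. Over 12442 annotated genes, the Spearman rho of the log2 fold change with transcript GC content was 0.729 and with gene span -0.556, a description across genes that share the same libraries. The members with the most GC (Nrxn2, Nlgn2 and Lrrtm1) were those that rose. With each library corrected for its trend on GC content and length of transcripts, 4 of the 9 were still DEGs, where 2467 of 12444 genes were: Lrrtm4 (-0.71), Nrxn3 (-0.61), Lrrtm3 (-0.52) and Nrxn2 (0.45). Nlgn2 moved to -0.01, Lrrtm2 to -0.01, Lrrtm1 to 0.09 and Nlgn1 to -0.18, and none of these was a DEG. Gene span was not part of this correction. The part of GC content or of span in these differences was not tested. Markers of meningeal fibroblasts also moved with the groups: the sum of 7 genes, 3 of them at a CPM of at least 1 in every library and none at 0 throughout, was 109 to 533 rescaled CPM in WT CS, 500 to 945 in SD and 132 to 751 in RS. By limma 4 of the 6 tested were higher DEGs in SD (24.6% of all genes) and 0 of 4 in RS (9.28%). For oligodendrocytes 5 of 11 were higher and 1 lower in SD (20.5% of all genes were lower), and 4 were higher in RS, with overlapping sums. In SD, astrocytes had 4 of 10 higher and 1 lower, pericytes and smooth muscle 3 of 7 and 1, and endothelial cells 1 of 8 and 3. The part of these cell types in the result was not tested.

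**Figure D3:**
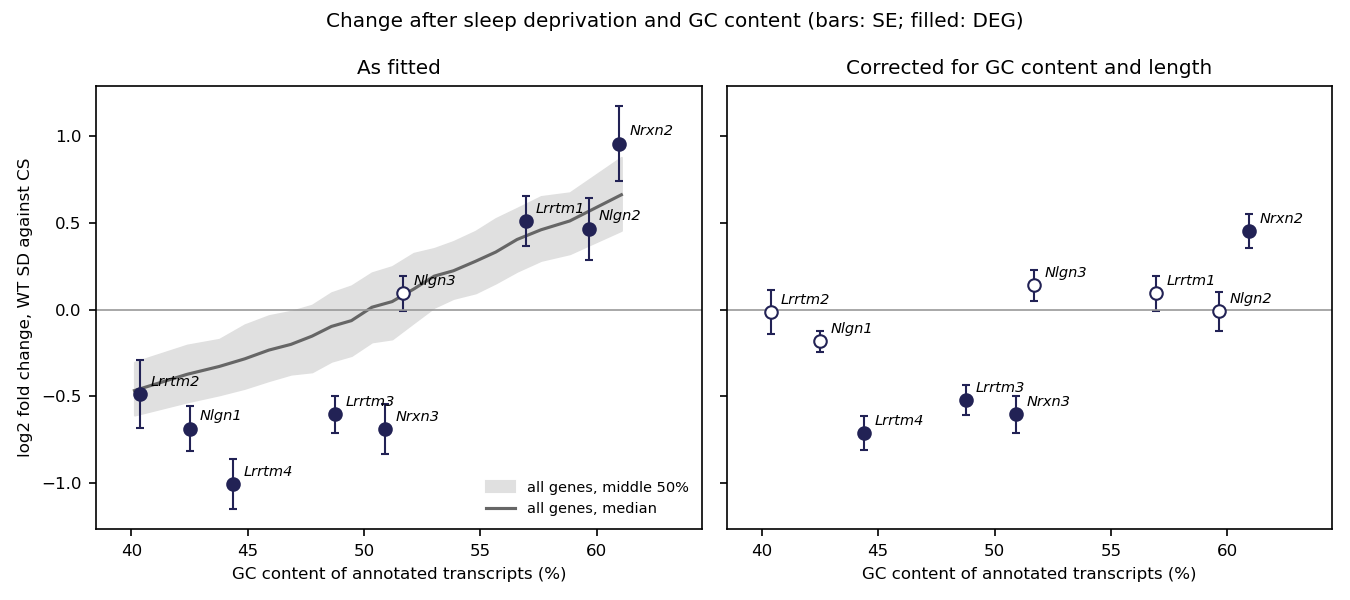
Log2 fold change of WT SD against CS (vertical axis, with bars of 1 SE) against the mean GC content of each gene's annotated transcripts, as fitted and after correction for GC content and length; filled points are DEGs, and the grey line and band are the median and middle 50% of all genes in 20 bins. Lrrtm4, Nrxn3 and Lrrtm3 lie below the band before correction and at -0.71, -0.61 and -0.52 after it, while Nlgn2 and Lrrtm2 move to -0.01. Nlgn1 also lies below the band before correction but is not a DEG after it, and Nrxn2 lies above the band.

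Fewer of the 9, and fewer of all genes, were called once the library sums entered the fit, an alternative chosen after the sums had been seen. With the listed-gene sum as a covariate, 5 of the 9 and 3449 of 12913 genes were DEGs in SD against CS (Lrrtm4 -0.89, Nrxn3 -0.69, Nlgn1 -0.62, Nrxn2 0.61 and Lrrtm3 -0.58). With the libraries at or above 970000 CPM alone, 4 of the 9 and 1810 of 12977 genes were (Lrrtm4 -0.91, Nlgn1 -0.62, Nrxn2 0.62 and Lrrtm3 -0.56). With quantile normalization 5 of the 9 and 4980 of 12913 genes were, and Nrxn3 was at 0.12, the opposite sign.

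Recovery sleep was examined by comparing RS with CS and with SD in WT mice, 2 comparisons that share libraries with the first and with each other. In RS, Nrxn2, Nlgn2 and Lrrtm1 were above CS and Nrxn3 and Lrrtm4 below it. These 5 of 9 were DEGs, where 17.5% of 12752 genes were, 3 of them higher (9.28% of all genes) and 2 lower (8.22%). No member had groups that did not overlap (3.72% of all genes). Nrxn2 was at 131, 177.4 and 245.4 rescaled CPM in RS (0.86 ± 0.232, limma adjusted p 0.0362), Nlgn2 at 87.7, 99.42 and 116.4 (0.56 ± 0.18, adjusted p 0.0463) and Lrrtm1 at 22.22, 31.2 and 38.04 (0.44 ± 0.129, adjusted p 0.0404). For Nlgn2, 2 CS libraries lay inside the RS range.

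On the lower side, Lrrtm4 was at 1064, 1757 and 3014 rescaled CPM in RS (-0.64 ± 0.21, limma adjusted p 0.0478) and Nrxn3 at 2860, 3741 and 5108 (-0.49 ± 0.151, adjusted p 0.0429). The RS libraries were spread widely, and the highest reached into the CS range. Nlgn1 (1875, 2347 and 3998; -0.47 ± 0.172, adjusted p 0.0603), Lrrtm3 (-0.41 ± 0.139, adjusted p 0.0508), Lrrtm2 (-0.40 ± 0.194, adjusted p 0.122) and Nlgn3 (0.16 ± 0.0954, adjusted p 0.198) did not pass. All 5 calls were lost when any of 8 libraries was left out (CS 1, 2 or 3, or RS 3, 4, 5, 6 or 12), where 0 to 223 genes of the whole table were DEGs. DESeq2 called 7 of the 9 and 3420 of 12752 genes, and edgeR 3 of the 9 and 1623 genes. After correction for GC content and length, only Nrxn2 (0.43) and Nrxn3 (-0.41) of the 9 were DEGs, with 628 of 12283 genes.

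Between RS and SD, 0 of the 9 were DEGs by limma, where 0.0232% of 12921 genes were, and 0 had an unadjusted p under 0.05 (5.29% of all genes did). By edgeR and DESeq2 0 were DEGs as well. The fitted values went from -0.10 (Nrxn2) to 0.37 ± 0.184 (Lrrtm4, adjusted p 0.973).

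In Mef2c f/f mice, the same 6 hr of sleep deprivation gave 0 DEGs among the 9 by limma, where 0.0403% of 12410 genes were DEGs. Lrrtm1 and Lrrtm2 had higher values in every SD library than in any CS library, and 17.4% of all genes had groups that did not overlap. Lrrtm1 was at 20.35, 21.3, 19.96 and 23.47 rescaled CPM in CS and 31.05, 27.81 and 28.34 in SD (0.44 ± 0.0877, adjusted p 0.0888). Lrrtm2 was at 80.03, 75.98, 70.09 and 67.03 in CS and 100.7, 95.66 and 105.1 in SD (0.46 ± 0.0822, adjusted p 0.0765). These 2 were also the members with an unadjusted p under 0.05 (17.0% of all genes), and DESeq2 called both DEGs, among 467 of 12410 genes, while edgeR called 0 of the 9 and 9 genes in all. Without Mef2c f/f CS replicate 1, limma called 2 of the 9 and 590 of 12433 genes.

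For the other 7 transcripts the Mef2c f/f groups overlapped. Nrxn3 was at 3222, 3090, 5627 and 3445 rescaled CPM in CS and 3010, 3013 and 3339 in SD (-0.26 ± 0.197, limma adjusted p 0.514), where replicate 3 stood alone at the top. Lrrtm4 was at 1516, 1265, 1727 and 1151 in CS and 1206, 1128 and 1360 in SD (-0.19 ± 0.145, adjusted p 0.522). Nlgn3 (0.17 ± 0.0794) had an adjusted p of 0.305. Lrrtm3, Nrxn2, Nlgn1 and Nlgn2 had log2 fold changes of -0.10, -0.05, -0.04 and 0.06, with SEs of 0.118 to 0.136.

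The difference between the Mef2c f/f and WT responses was tested as an interaction, called on the adjusted p alone. It passed for 4 of the 9 transcripts, where 15.1% of 13106 genes passed: Nrxn2 (-1.01 ± 0.331, limma adjusted p 0.0464), Lrrtm2 (0.95 ± 0.289, adjusted p 0.0386), Lrrtm4 (0.82 ± 0.233, adjusted p 0.0319) and Nlgn1 (0.65 ± 0.199, adjusted p 0.0403). For Lrrtm2 the fitted changes had opposite signs, -0.49 in WT and 0.46 in Mef2c f/f mice. The Spearman rho of this interaction with transcript GC content across 12631 genes was -0.754, and once GC content and length were corrected for, 0 of the 9 and 273 of 12633 genes passed. Leaving out any of WT SD 8, Mef2c f/f CS 2 or 4, or Mef2c f/f SD 1 or 3 also gave 0 of the 9, and 23 to 876 genes in all. Cohort and genotype cannot be told apart here.

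In Mef2c-cKO mice, sleep deprivation gave 0 DEGs among the 9 by limma, where 0.0234% of 12810 genes were DEGs, and 0 of the 9 had an unadjusted p under 0.05 (3.05% of all genes). edgeR and DESeq2 also called 0. Lrrtm1 was at 29.6, 29.66 and 29.37 rescaled CPM in CS and 28.22, 26.15 and 27.88 in SD (-0.11 ± 0.0725, adjusted p 0.998), and was the member with lower values in every SD library (9.05% of all genes had groups that did not overlap). Nrxn3 was at 2287, 2550 and 2405 in CS and 2713, 2539 and 3063 in SD (0.20 ± 0.129, adjusted p 0.998), with overlap. The fitted values of the 9 lay between -0.19 (Lrrtm4) and 0.20.

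The difference between the Mef2c-cKO and Mef2c f/f responses passed for 0 of the 9 by limma, where 0.00778% of 12860 genes passed. Lrrtm1 came nearest, with -0.55 ± 0.11 and an adjusted p of 0.217, and it passed with DESeq2 (59 genes in all) and with array quality weights (315). Lrrtm1 and Lrrtm2 (-0.42 ± 0.124, adjusted p 0.528) were the members with an unadjusted p under 0.05 (7.81% of all genes). For Lrrtm1, levels in Mef2c-cKO mice in both states (26.15 to 29.66) were close to those of Mef2c f/f SD mice (27.81 to 31.05) and above all Mef2c f/f CS libraries (19.96 to 23.47).

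The comparison of genotypes within a sleep state asked which transcripts differed when Mef2c was deleted. In CS, Lrrtm3 and Lrrtm4 were lower and Lrrtm1 higher in Mef2c-cKO mice: 3 of 9 were DEGs, where 7.67% of 12681 genes were, with 1 higher (3.17%) and 2 lower (4.5%). Lrrtm4 was at 788.7, 885.4 and 872.9 rescaled CPM against the Mef2c f/f values above (-0.72 ± 0.152, limma adjusted p 0.0269). Lrrtm3 was at 190.8, 186.7, 285.8 and 225.1 in Mef2c f/f and 148, 147.4 and 152.6 in Mef2c-cKO mice (-0.55 ± 0.143, adjusted p 0.0499). Lrrtm1 was higher by 0.47 ± 0.0906 (adjusted p 0.0212). For all of these the genotypes did not overlap, and 6 of the 9 had groups that did not overlap, against 26.9% of all genes.

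Also without overlap in CS, but not DEGs, were Nlgn1, Nrxn3 and Lrrtm2. Nlgn1 was at 2068, 1879, 2391 and 1774 rescaled CPM in Mef2c f/f and 1236, 1433 and 1499 in Mef2c-cKO mice (-0.54 ± 0.142, limma adjusted p 0.0507; a DEG with edgeR). Nrxn3 had a log2 fold change of -0.63 ± 0.214 (adjusted p 0.0991) and Lrrtm2 of 0.31 ± 0.0853 (adjusted p 0.0563). Nrxn2, Nlgn2 and Nlgn3 were between -0.07 and -0.04, with adjusted p values of 0.796 to 0.847. The host gene Ctnna2 was lower by a log2 fold change of -0.55 ± 0.13, opposite to Lrrtm1, and Ctnna3 had -0.29 ± 0.126 (adjusted p 0.169). The 3 calls became 0 without Mef2c-cKO CS 5, Mef2c-cKO CS 7 or Mef2c f/f CS 2, and 1 without Mef2c-cKO CS 8 or Mef2c f/f CS 3, while the DEGs of the whole table went from 973 to between 171 and 611.

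In SD, Lrrtm3, Lrrtm4 and Nlgn1 were lower in Mef2c-cKO mice, and 0 were higher (9.1% of all genes). These 3 of 9 were DEGs, where 15.1% of 12774 genes were and 5.99% were lower DEGs. Lrrtm4 was at 1206, 1128 and 1360 rescaled CPM in Mef2c f/f and 816.7, 584.8 and 853.6 in Mef2c-cKO mice (-0.73 ± 0.147, limma adjusted p 0.0143). Lrrtm3 was at 199.9, 205.7 and 207.1 against 147.5, 119.9 and 154.9 (-0.54 ± 0.0955, adjusted p 0.00838). Nlgn1 was at 1964, 1825 and 2090 against 1443, 1389 and 1482 (-0.45 ± 0.0875, adjusted p 0.013). None of the 3 overlapped between genotypes.

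Nlgn3 was lower in each Mef2c-cKO SD library (56.54, 46.94 and 53.3 rescaled CPM against 62.54, 64 and 65.69), but its log2 fold change of -0.295 ± 0.0792 (limma adjusted p 0.0373) was just under the fold threshold. It made 4 of 9 with groups that did not overlap, against 40.3% of all genes. Lrrtm1, higher in CS, was at -0.08 ± 0.0751 in SD (adjusted p 0.476). The 3 calls became 1 without Mef2c f/f SD 1 or 3, with 822 and 948 DEGs in all against 1927. After correction for GC content and length, Lrrtm4 (-0.77 in CS and -0.72 in SD), Lrrtm3 (-0.56 and -0.58) and Nlgn1 (-0.52 and -0.38) were DEGs in both states, with 1495 of 12660 genes in CS and 1907 of 12753 in SD.

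Marker lists moved with genotype as well. Over all genes, 9.1% were higher and 5.99% lower DEGs between genotypes in SD, and 3.17% were higher and 4.5% lower in CS. In SD, 6 of 12 excitatory neuron markers were lower DEGs in Mef2c-cKO mice and their sum was 2275 to 2532 rescaled CPM against 3026 to 3184 in Mef2c f/f mice. For inhibitory neurons 7 of 12 were higher and 2 lower, with sums of 1316 to 1491 against 921 to 1028. In CS, 2 of 12 excitatory markers were lower (sums 2068 to 2611 against 2552 to 2951) and 1 of 12 inhibitory markers was higher (1261 to 1405 against 920 to 1452). For microglia, 6 of 8 measured markers were higher DEGs in Mef2c-cKO SD mice (median of the 8, 0.48 on the log2 scale), with sums of 216.4 to 240.5 against 168.9 to 175.4. In CS 0 of the 8 were DEGs, with sums of 185.7 to 547.8 against 154.3 to 185.8. A single Mef2c-cKO CS library had the sum of 548, where the other 32 libraries were at or below 241. For oligodendrocytes, 3 of 11 markers were higher in CS, with sums of 2397 to 3132 against 1973 to 2347, and in SD 0 were higher and 1 lower, with overlapping sums. In Mef2c f/f mice these sums were also apart between SD (2627 to 2998) and CS, with 0 of the 11 DEGs (0.0403% of all genes). The Mef2c f/f sums were higher in SD without overlap for excitatory neurons too (3026 to 3184 against 2552 to 2951, 0 of 12 DEGs). The same held for astrocytes (4892 to 5200 against 4467 to 4879, 0 of 10 DEGs). In Mef2c-cKO mice the excitatory sums overlapped between SD (2275 to 2532) and CS (2068 to 2611). Sums were apart between genotypes for astrocytes in SD (4524 to 4836 in Mef2c-cKO against 4892 to 5200, with 2 of 10 markers higher) and for pericytes and smooth muscle in CS (146.1 to 171.3 against 124.1 to 144.5, with 0 of 7 called). No list had a gene at 0 in every library. The part of these cell types in the differences of the LRRTMs and Nlgn1 was not tested.

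Ratios of 2 members within a library do not depend on its scaling and were set out without a test. The log2 ratio of Nlgn1 to Nlgn2 was 5.69 ± 0.738 (SD, n = 6) in WT mice with CS, was 4.53 ± 0.243 (n = 7) after SD and was 4.65 ± 0.404 (n = 7) after RS. The ratio of Nrxn3 to Nrxn2 was 5.78 ± 0.702, 4.13 ± 0.409 and 4.42 ± 0.627, and that of Lrrtm4 to Lrrtm1 7.01 ± 0.514, 5.48 ± 0.502 and 5.93 ± 0.699. All WT CS libraries lay above all WT SD libraries in each of the 3 ratios. Each sets a member of lower GC content over one of higher GC content, and the fitted changes of the pairs, once corrected for GC and length, were -0.18 and -0.01 for Nlgn1 and Nlgn2, -0.61 and 0.45 for Nrxn3 and Nrxn2, and -0.71 and 0.09 for Lrrtm4 and Lrrtm1. In Mef2c f/f mice Lrrtm4 to Lrrtm1 was 6.04 ± 0.361 (n = 4) in CS and 5.40 ± 0.162 (n = 3) in SD, and in Mef2c-cKO mice 4.84 ± 0.0929 (n = 3) and 4.76 ± 0.242 (n = 3), below every Mef2c f/f library of the same state.

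**Figure D4:**
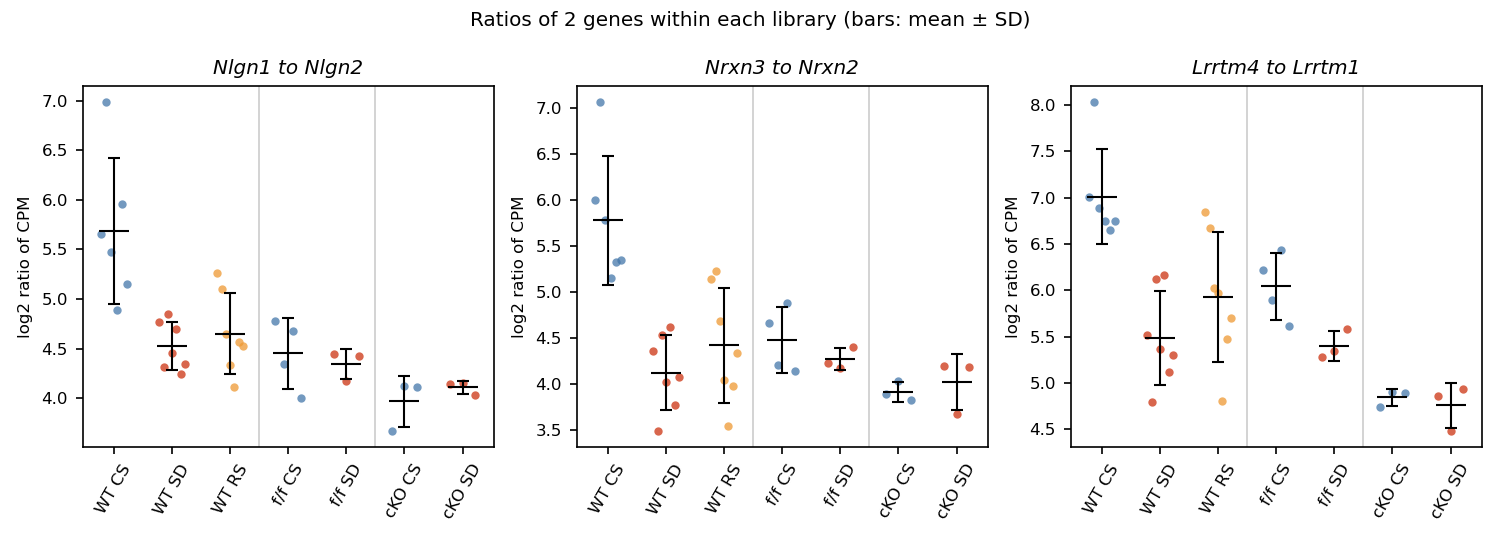
Log2 ratio of the CPM of Nlgn1 to Nlgn2, Nrxn3 to Nrxn2 and Lrrtm4 to Lrrtm1 in each of 33 libraries by group, with each point 1 library and bars at the mean ± SD; the axes do not start at 0. In each ratio the WT CS libraries lie above the WT SD libraries, and for Lrrtm4 to Lrrtm1 the Mef2c-cKO libraries (4.48 to 4.94) lie below the Mef2c f/f libraries (5.28 to 6.44).

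Some of the transcripts also varied together between libraries of the same group, and others did not. On values centred within each of the 7 groups, over 33 libraries, Pearson's r was 0.925 for Nlgn1 with Lrrtm4 (Spearman's rho 0.856), 0.923 for Nrxn3 with Lrrtm3 (0.891) and -0.848 for Nrxn2 with Lrrtm2 (-0.803). The first of these pairs had the highest r among the 9 and the last the lowest. Also high were Lrrtm3 with Lrrtm4 (0.858), Nrxn3 with Lrrtm4 (0.822), Nlgn1 with Lrrtm3 (0.819) and Nrxn3 with Nlgn1 (0.8). Other pairs were near 0, such as Nlgn2 with Lrrtm3 (-0.022) and Nlgn3 with Lrrtm1 (0.0547). Each pair shares its libraries, their depth and scaling, and Nrxn2 and Lrrtm2 have the highest and the lowest GC content of the 9. The genes most like 7 of the members, among 9150 with a CPM of at least 5 in all libraries, were Ttyh3 for Nrxn2 (r = 0.943), Lrp1b for Nlgn1 (0.973), Amer1 for Nlgn3 (0.777), Rpl27 for Lrrtm1 (0.928), Dynlt3 for Lrrtm2 (0.956), Anks1b for Lrrtm3 (0.926) and Hmgcll1 for Lrrtm4 (0.976).

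Known partners of these proteins, genes of neurexin splicing and shedding, and other synaptic adhesion genes not listed as partners were set out in groups. In WT SD against CS, 24.6% of all genes tested were higher DEGs and 20.5% lower. Of the 14 measured secreted or membrane partners 5 were higher and 4 lower, and of 11 intracellular partners 1 was higher and 6 lower. Of 5 neurexin splicing and shedding genes 0 were higher and 3 lower. Of 35 other synaptic adhesion genes 7 were higher and 20 lower. The median log2 fold change over these 65 genes was -0.31, beside 0.04 for all genes tested. The lowest DEGs were Ptprd, a receptor phosphatase that acts as a presynaptic adhesion molecule (-1.10 ± 0.154, limma adjusted p 0.000456), Lrrc4c (-1.01 ± 0.135) and Il1rapl1 (-0.98 ± 0.159). All of these were from the group of other synaptic adhesion genes. The highest DEGs were Mdga1, which binds neuroligins and blocks their contact with neurexins (1.16 ± 0.197, adjusted p 0.00109), Cadm4 (1.01 ± 0.26) and Lrfn3 (0.89 ± 0.218). Cadm4 and Lrfn3 were from the group of other synaptic adhesion genes too.

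In Mef2c-cKO against Mef2c f/f CS mice, 4 of the 66 genes of these groups were higher DEGs (3.17% of all genes) and 8 lower (4.5%). Their median was -0.12 beside 0.03 for all genes. Among the DEGs, Tenm2 (-0.91 ± 0.185, limma adjusted p 0.0236), Ptprd (-0.79 ± 0.159) and Magi2, a scaffold (-0.73 ± 0.181), were lowest. Tenm2 and Ptprd were other synaptic adhesion genes. Nxph1, a listed partner that was not a DEG, was at -0.84 ± 0.238 (limma adjusted p 0.0612). Mdga1 (1.32 ± 0.297, adjusted p 0.034), Cbln1, a secreted protein that bridges neurexins to glutamate receptor delta subunits (1.31 ± 0.328), and Nxph4, a neurexophilin (0.97 ± 0.237), were the highest DEGs, although Nxph4 was low at 0.635 ± 0.203 rescaled CPM (SD, n = 4) in Mef2c f/f CS. Between SD and CS, 0 genes of these groups were DEGs by limma in Mef2c f/f mice (0.0403% of all genes) or Mef2c-cKO mice (0.0234%).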

How the data were processed

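RNA from 33 frontal cortex libraries was used, grouped by the genotype and sleep state in the labels. Reads were trimmed, mapped to mm10 (STAR) and, where uniquely mapped, counted per gene (HTSeq) by the authors, who deposited CPM. The counted feature type, strand setting and annotation release are not given in the sources used here. Whole reads were recovered from the CPM, with 711645 of 711645 values within 0.01 of a whole number. Totals went from 18935045 to 249046089 reads, and counting error was not set apart from the spread between libraries.

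CPM were rescaled by median-of-ratios factors over 33 libraries. Log2 values with a pseudocount of 0.5 were fitted with limma 3.58.1 (lmFit, eBayes with a trend) in R 4.3.3, within the compared groups, and adjusted over all genes tested. The count tests edgeR 4.0.16 and DESeq2 1.42.0 on the recovered reads, other scalings, filters, pseudocounts and weights, a GC and length correction, a replicate block and left-out libraries were alternatives. The procedure was also run on simulated counts with the same dispersion for all genes and no trend with GC content. That run cannot show how it behaves under the GC trend seen here. Of 21565 symbols, 19475 were found in GENCODE M21, 245 of them through a synonym. The members and lists were chosen with earlier results of these data known. Genes of the partner and other adhesion lists are named by size of change (the top 3 DEGs in each direction over all of these lists, in 4 of the comparisons). For each member, 3 genes most like it were found, and the first is named for 7 of the 9; some single results are not reported here.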

Additional observations from a re-analysis of the deposited data

Results flagged for a closer look

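Single libraries stood far from the others of their group in 5 of 36 combinations of transcript and group of 4 to 7 libraries, by Dixon's test at the 95% level, which chance alone flags in about 1 in 20. WT CS replicate 2 was the highest library for Nrxn3 (6865 rescaled CPM), Nlgn1 (4906) and Lrrtm4 (4320). Its scaling factor of 0.7175 was the lowest of the 33 libraries, which raises its rescaled values. As deposited it was at 4926, 3520 and 3099 CPM, where the next highest WT CS library was at 4809, 3056 and 2390. Without WT CS replicate 2, the log2 fold changes of WT SD against CS were -0.62, -0.59 and -0.88, and all 3 were DEGs by limma. Mef2c f/f CS replicate 3 was the highest for Nrxn3 (5627), and WT SD replicate 1 for Lrrtm2 (101.4).

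The responses to sleep deprivation differed between WT and Mef2c f/f mice by the interaction term for Nrxn2 (-1.01), Nlgn1 (0.646), Lrrtm2 (0.946) and Lrrtm4 (0.82), none of which passed after correction for GC content and length. For Lrrtm1, every Mef2c f/f SD library was above every Mef2c f/f CS library and every Mef2c-cKO SD library below every Mef2c-cKO CS library. The interaction was -0.549 with a limma adjusted p of 0.217, so the difference did not pass the test.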

How the results depend on the processing

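The number of the 9 transcripts called changed with the processing as follows, and the cause was not tested unless named. In WT SD against CS it was 8, and 5 with quantile normalization, 4 after correction for GC content and length, 5 with the listed-gene sum as a covariate, 4 with the libraries at or above 970000 CPM, and 6 to 8 with a library left out. In WT RS against CS it was 5, and 3 with quantile normalization, 0 without a filter, 2 after the GC and length correction, 3 with edgeR, 6 with a CPM of at least 5, array quality weights or the libraries at or above 970000 CPM, 7 with DESeq2, the cohort fit, the replicate block or the listed-gene sum, and 0 to 7 with a library left out. In Mef2c f/f SD against CS it was 0, and 2 with array quality weights, 1 after the GC and length correction, 2 with DESeq2, and 0 to 2 with a library left out. In Mef2c-cKO against Mef2c f/f CS it was 3, and 1 without a filter, 5 with array quality weights, 5 with DESeq2, 6 in a fit over all groups of the cohort, and 0 to 3 with a library left out, and in SD it was 3, with 1 to 4. For the interaction of Mef2c-cKO with Mef2c f/f it was 0, and 1 with array quality weights or DESeq2. For that of Mef2c f/f with WT it was 4, and 2 with quantile normalization, 0 without a filter, 0 after the GC and length correction, 5 with DESeq2, 6 with array quality weights, and 0 to 4 with a library left out. Over all genes, DEGs in WT RS against CS were 2232, and 385 without a filter, 628 after the GC and length correction, 3420 with DESeq2 and 4017 in the cohort fit. In Mef2c f/f SD against CS they were 5, and 1750 with array quality weights and 467 with DESeq2. CPM as deposited gave 6106 higher and 801 lower DEGs in WT SD against CS, where the rescaled values gave 3182 and 2643. Per kb of exon in WT CS, rescaled CPM gave 429.1 for Nrxn3, 262.0 for Nlgn1, 78.35 for Lrrtm3 and 467.0 for Lrrtm4.

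What a shared library number stands for is not given in the sources used here. Same-numbered libraries deviated together in some pairs and not in others, with r from -0.30 to 0.65 in WT SD and CS, 0.05 to 0.66 in WT RS and CS, -0.73 to 0.35 in WT RS and SD, 0.05 to 0.29 in Mef2c f/f and 0.07 to 0.16 in Mef2c-cKO mice. In no comparison with 3 or more pairs were all above 0.1 or did each library correlate best with its own number, so the numbers were not taken as pairs. Yet in WT RS and CS, Mef2c f/f and Mef2c-cKO mice, each same-numbered r was above the median r with other numbers (-0.33 to -0.0091). In the WT comparisons with SD, some were not. The low listed-gene sums were in low numbers (CS 1 to 4, SD 1 and RS 1 to 3). With the replicate block, 0 of the 9 and 287 genes in all were called in WT SD against CS (5825 without it), 7 of the 9 and 4279 genes in WT RS against CS (2232 without it), and 0 of the 9 in the interaction of Mef2c f/f with WT. The block also gave fitted log2 values of 0.0219 for Nrxn2 in Mef2c f/f SD against CS, -0.00282 for Lrrtm2 and 0.0335 for Lrrtm3 in Mef2c-cKO SD against CS, -0.00298 for Nrxn2 and 0.28 for Lrrtm4 in the interaction of Mef2c-cKO with Mef2c f/f, and 0.0250 for Lrrtm1 in that of Mef2c f/f with WT, each with the opposite sign to the unblocked fit.

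Fitted log2 values also changed sign in these cases, most of them near 0 and not called. With quantile normalization, Nrxn3 was 0.12 in WT SD against CS, 0.15 in WT RS against CS, 0.15 in Mef2c-cKO against Mef2c f/f SD and -0.29 in the interaction of Mef2c f/f with WT, Nlgn1 was 0.0113 in WT RS against CS, Nrxn2 0.0184 in Mef2c-cKO against Mef2c f/f CS, and Lrrtm3 and Lrrtm1 -0.0101 and 0.00869 in the interactions of Mef2c-cKO with Mef2c f/f and of Mef2c f/f with WT. With the GC and length correction, Nlgn2 was -0.00966 in WT SD against CS, Lrrtm2 -0.0234 in WT RS against SD, Nrxn2 0.0193 in Mef2c f/f SD against CS and -0.0264 in Mef2c-cKO against Mef2c f/f SD, Nlgn3 0.0446 in Mef2c-cKO against Mef2c f/f CS, Lrrtm3 -0.0124 and Lrrtm4 0.0498 in the interaction of Mef2c-cKO with Mef2c f/f, and Nlgn2 0.14 and Lrrtm1 0.40 in that of Mef2c f/f with WT. On CPM as deposited, Nlgn3 was -0.0210 in WT RS against SD, Nrxn2 0.0375, Nlgn2 0.0441 and Nlgn3 0.0648 in Mef2c-cKO against Mef2c f/f CS, Lrrtm3 -0.0225 in the interaction of Mef2c-cKO with Mef2c f/f and Nlgn3 -0.18 in that of Mef2c f/f with WT. With array quality weights, Nlgn1 was 0.0403 and Lrrtm3 0.0611 in Mef2c f/f SD against CS, Nrxn2 -0.0320 and Nlgn3 0.0522 in Mef2c-cKO SD against CS, Nrxn2 -0.0760 in Mef2c-cKO against Mef2c f/f SD and Lrrtm3 -0.0514 in the interaction of Mef2c-cKO with Mef2c f/f. In that interaction Lrrtm3 was -0.00163 with TMM, and Lrrtm4 0.0220 with edgeR and 0.0293 with DESeq2. In WT RS against SD, the listed-gene sum as a covariate gave 0.0183 for Nrxn2 and -0.0183 for Lrrtm2, and the libraries at or above 970000 CPM gave 0.0936 for Nrxn2, -0.0180 for Nrxn3, 0.12 for Lrrtm1 and -0.00057 for Lrrtm2.

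With a library left out, signs changed within these ranges: in Mef2c f/f SD against CS, Nrxn2 -0.18 to 0.0219, Nlgn1 -0.10 to 0.0399, Nlgn2 -0.0344 to 0.15 and Lrrtm3 -0.18 to 0.0290. In Mef2c-cKO SD against CS, Nrxn2 was -0.0241 to 0.19, Nlgn1 -0.0274 to 0.11, Nlgn3 -0.16 to 0.0239, Lrrtm2 -0.0139 to 0.13 and Lrrtm3 -0.17 to 0.0180. In Mef2c-cKO against Mef2c f/f CS they were Nrxn2 -0.20 to 0.00614, Nlgn2 -0.16 to 0.0294 and Nlgn3 -0.15 to 0.0397, and in SD Nrxn2 -0.0398 to 0.18. In the interaction of Mef2c-cKO with Mef2c f/f, Lrrtm3 went from -0.12 to 0.12 and Lrrtm4 from -0.11 to 0.16, and in that of Mef2c f/f with WT Lrrtm1 went from -0.16 to 0.00885. The change of the log2 ratio between Mef2c-cKO SD and CS went from 0.0166 to 0.28 for Nrxn3 to Nrxn2 and from -0.17 to 0.0525 for Lrrtm4 to Lrrtm1.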
